A study of Mus musculus with 15 samples.

Results

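The cytosolic ribosomal protein genes, which encode the proteins of the ribosomes in the cytoplasm, were followed through the periprostatic fat of mice fed a high-fat diet with estradiol or placebo and of mice fed a low-fat diet. They were taken by symbol: every gene whose name begins with Rpl or Rps followed by a digit, together with Rplp0, Rplp1, Rplp2 and Rpsa. The 6 symbols marked as pseudogenes by "-ps" and the 10 Rps6k kinases were left out. This gave 87 genes of the 23995 listed in each library. By role they were 31 proteins of the small (40S) subunit, 43 of the large (60S) subunit, the 3 proteins of the P stalk, 9 paralogs or retrogene copies, and Rps19bp1, which carries the name but encodes a binding partner of Rps19 and no ribosomal protein.

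Periprostatic fat is the white adipose tissue around the prostate, and RNA was sequenced from it in 15 C57BL/6 mice aged 26 weeks, 5 in each of 3 groups. The HFD estradiol mice were fed 60 kcal% fat from 6 weeks of age and after 12 weeks of it received a pellet holding 0.25 mg of 17β-estradiol, an estrogen, for the last 8 weeks. The HFD placebo mice had the same diet and a placebo pellet. The LFD mice were fed 10 kcal% fat and had no pellet, so that diet and pellet cannot be told apart in any comparison with them. The markers were those of fat with little prostate epithelium: all 10 mature adipocyte markers looked up were above the tested level, and of 8 prostate epithelium markers none was, with Krt5 and Msmb below 0.1 in every library. Which fat depot it was cannot be read from them. Values are FPKM, fragments normalised to transcript length and library size, and each library was divided by the median ratio of its genes to their geometric means, which gives the scaled FPKM used below. The FPKM sum ran from 34449 to 105910, and the 2 highest sums were those of HFD placebo 4 and 5. By an estimate from the spacing of low values, a scaled FPKM of 1 in a transcript of 500 bases stood for 6.09 to 16.2 fragments in HFD estradiol, 5.83 to 37.2 in HFD placebo and 3.43 to 6.70 in LFD, so depth was lowest in LFD on the whole, with ranges that overlap. The libraries lay on 2 sequencing lanes: all HFD estradiol libraries on lane 6, HFD placebo 1 to 3 on lane 5 and 4 and 5 on lane 6, and all LFD libraries on lane 5.

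A ribosome holds one copy of nearly every core ribosomal protein, and cells match the supply of these proteins to growth and to the output of ribosomal RNA. In mammals the messengers of ribosomal proteins begin with a C followed by a run of pyrimidines, the 5′ terminal oligopyrimidine or TOP motif, through which mTORC1 and the protein LARP1 control their translation and stability. Most of these genes have also left many processed pseudogenes in the mouse genome, whose sequence is nearly that of the messenger.

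Pyrimidine runs near the annotated transcription start, the kind of stretch a TOP motif is made of, are shown for members whose values are described further on, in one 30-base window each, centred on the run. The window need not hold the start itself. RefSeq starts on GRCm38.p6 were at hand for 66 of the 87 members. The longest run made of a C followed only by C or T, on the transcribed strand, was sought from 15 bases before to 50 bases after each start. Capitals mark that run. The windows lie at chr4:86857349-86857378 (minus strand) for Rps6, chr11:114668569-114668598 (plus) for Rpl38, chr17:33955647-33955676 (minus) for Rps18, chr10:128626484-128626513 (minus) for Rps26, chr12:69184019-69184048 (minus) for Rpl36al, chrX:134585673-134585702 (plus) for Rpl36a, chr3:90213631-90213660 (minus) for Rps27, chr9:66946064-66946093 (plus) for Rps27l, chr9:114982704-114982733 (minus) for Rps27rt and chr5:115559468-115559497 (plus) for Rplp0.
Rps6: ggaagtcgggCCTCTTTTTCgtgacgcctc
Rpl38: gaagcctcgttCTTTCCCCgttctcttcgg
Rps18: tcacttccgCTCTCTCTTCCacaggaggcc
Rps26: agccgccggatCCTCTTTCgagtcttggct
Rpl36al: ctctgttcgtCCCTTTCCTgttcggcgcgt
Rpl36a: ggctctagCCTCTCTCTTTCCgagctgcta
Rps27: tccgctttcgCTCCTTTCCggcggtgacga
Rps27l: ctcctctccaCTCCTCCCCgccgcctctat
Rps27rt: ggcggtgacgaCCTCCCTacgagaacatgc
Rplp0: gaccgcctggttCTCCTataaaaggcacac

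Counting the annotated start base as 1, the run began at base 1 in Rpl38, at -1 in Rps6 and at -2 in Rps18 and Rps27. In the other windows it was not at the start: it began at base 30 in Rpl36al, 28 in Rpl36a, 18 in Rps27rt, 14 in Rplp0 and 5 in Rps26, and at -12, before the transcript, in Rps27l. In Rplp0 it was only 5 bases long. Of the 57 core subunit and stalk members with a start, 48 (84.2%) held a run of at least 6 bases and 40 (70.2%) one of at least 8. Over the first start of 27025 genes the shares were 42.1% and 18.3%, and the median longest run was 5 bases, against 10 in the core members. A run in this window describes the letters there and was not tied to any value below.

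All but 1 of the members were above 0 somewhere, and their levels spanned several orders of magnitude. By mean scaled FPKM over all libraries, 13 members lay above 20, 21 between 10 and 20, 45 between 1 and 10 and 8 below 1. Rpl41, a protein of the large subunit and one of the smallest known, was highest at 52.7. It was followed by Rps24 at 30.6 and Rps15 at 28.7, both of the small subunit, and by Rpl4 at 27.5, Rpl32 at 26.7 and the stalk protein Rplp1 at 26.5. Tests covered the 79 members that reached a scaled FPKM of 1 in 5 or more libraries, and their median level was 8.72, against 1.88 over all 5615 genes tested. The other 8 were Rpl10l, listed at 0 in every library, Rpl3l, Rpl39l, Rpl22l1, Rpl34, Rps15a, Rps27 and Rps19bp1. Of these, Rpl34 belongs to the core of the large subunit, and Rps15a and Rps27 to that of the small one. They averaged 0.138, 0.464 and 0.543 scaled FPKM over all libraries. The muscle paralog Rpl3l and the testis paralog Rpl39l averaged 0.00611 and 0.0185.

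**Figure D1:**
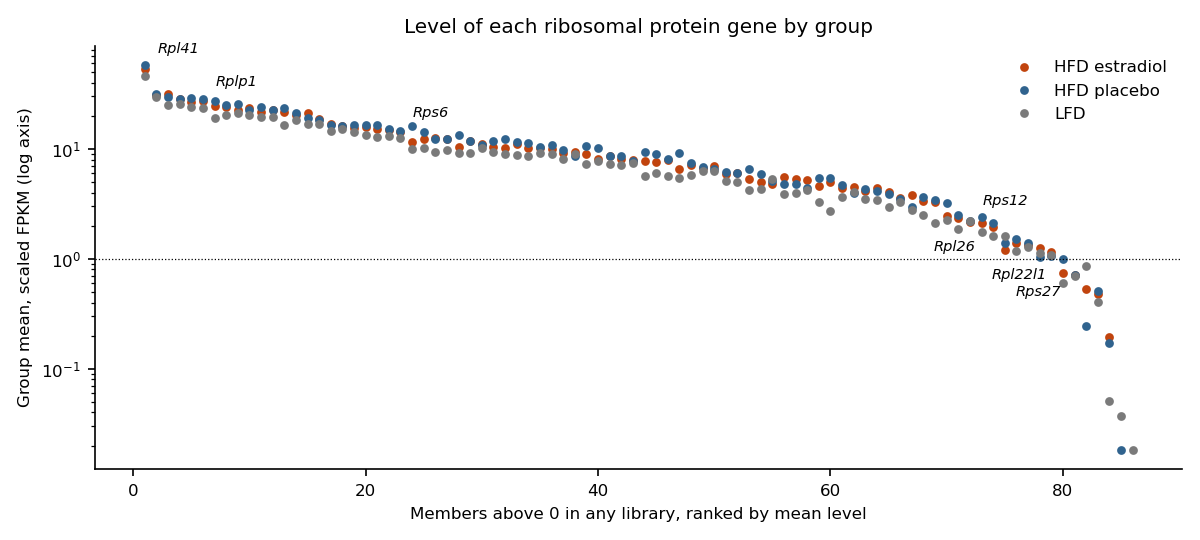
Group means of scaled FPKM (log axis, n = 5 mice each) for the 86 members above 0 in any library, ranked by their mean over all libraries. Rpl41 leads at 52.7, the dotted line marks a scaled FPKM of 1, and HFD placebo lies above LFD for most members.

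Levels that differ this much between proteins needed in equal number stood beside shared sequence. In GENCODE vM21, 76 of 77 core members with a transcript had at least one 50-base stretch in common with a pseudogene, the median being 9 pseudogenes and the highest 121, for Rpl7a. The median core member had 56.6% of its 50-base stretches in other genes, 47 members had over 50% and 5 had under 10%. Median levels were 7.29 scaled FPKM in members with over 50% shared, 9.99 with 10 to 50% and 14.9 with under 10%. The last group holds only 5 members. Among them Rps20 and Rps15a were scored on transcripts of 3706 and 5130 bases, where the core median was 774. Rps15a, at 0.464 scaled FPKM, was low despite little shared sequence. Across the 77 genes, which come from the same libraries and are not replicates, Spearman's rho between shared sequence and level was -0.24. Between transcript length, which ran from 345 to 5130 bases, and level it was 0.21. The sources used here do not give how reads that fit several genes were counted, so a low level of a core member is uncertain, and so is its share between near-identical genes.

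The family of Rps27, a zinc-finger protein of the small subunit, shows the limit most clearly. Rps27 (chr3:90212522-90213651) shared 98.6% of its transcript with other genes and was near the bottom of the list, at 0.904, 0.409, 0.267, 0.759 and 0.298 scaled FPKM in HFD estradiol, 0.313, 0.0557, 0.353, 0.384 and 0.127 in HFD placebo, and 0.685, 0.204, 0.681, 1.75 and 0.961 in LFD. The values of all 3 groups overlapped. Its intronless copy Rps27rt (chr9:114982366-114982739), with 91.1% shared, averaged 5.02 ± 2.15 in HFD estradiol, 5.42 ± 1.43 in HFD placebo and 2.75 ± 0.427 in LFD (SD, n = 5 each). Rps27l, a more distant paralog that p53 activates and of which 22.4% was shared, averaged 5.35 ± 1.13, 6.52 ± 0.675 and 4.21 ± 0.491 in HFD estradiol, HFD placebo and LFD (SD, n = 5 each). In a single fit on every gene above 0, Rps27 fell in HFD placebo against LFD by 0.53 on the log2 scale (adjusted p = 0.0483), while Rps27rt rose by a log2 fold change of 0.76 there. How reads were divided between these copies was not tested. Rpl26 was another unstable estimate: it read 3.05, 1.91, 1.11, 0.000132 and 0.000260 in HFD estradiol, 0.000287, 0.000272, 4.94, 1.66 and 0.366 in HFD placebo, and 0.000250, 3.51, 0.000346, 4.48 and 0.000362 in LFD. Each group held libraries near 0 and libraries above 1.

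**Figure D2:**
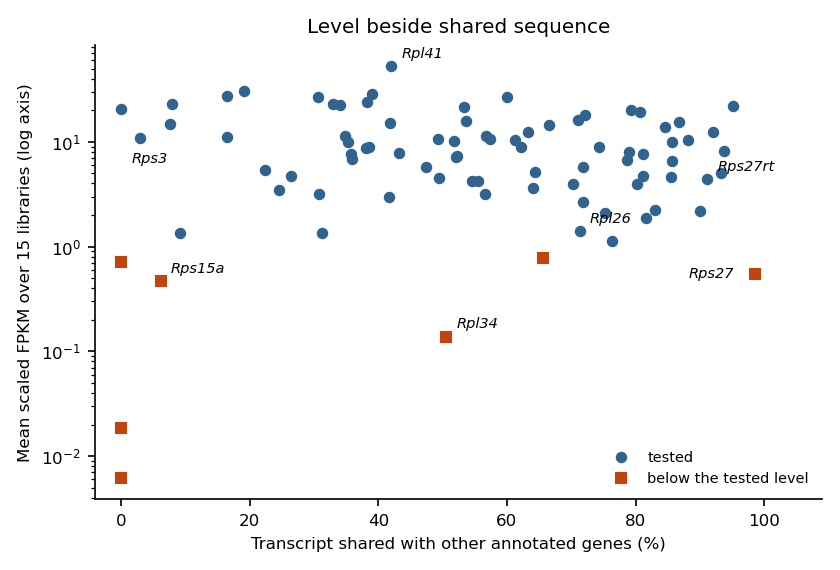
Mean scaled FPKM over 15 libraries (log axis) against the percent of a transcript's 50-base stretches found in other annotated genes, 1 point per member with a transcript and a mean above 0. Rps3 has 2.96% shared at 10.9, Rps27 has 98.6% shared at 0.543, and highly expressed members occur at every degree of sharing.

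HFD placebo mice differed from LFD mice by the high-fat diet and a pellet without hormone. Many ribosomal protein genes were higher in HFD placebo fat, by modest amounts, and none fell. By limma on log2(scaled FPKM + 1), 32 of 79 members rose (40.5%) at an adjusted p below 0.05, where 21.3% of all genes tested rose. None fell, where 22.0% of all genes tested did. At an unadjusted p below 0.05 in limma 43 of 79 were higher, beside 1396 of all 5615 genes, and none was lower, beside 1459. The median log2 fold change was 0.25, against -0.01 over all genes, and 73 members had a positive one, beside 2696 of 5615 genes. It ran from -0.07 for Rpl11 to 0.76 for Rps27rt. In 13 of 79 members, Rps27rt, Rpl36al, Rps27l and Rps26 among them, every HFD placebo value lay above every LFD value. This share is near the 14.6% found over all genes tested. In 0 members the reverse held, which it does for 13.0% of all genes tested. The rise was spread over the particle: 10 of 29 small-subunit members rose with a median of 0.23, 18 of 42 large-subunit members with a median of 0.26, 1 of 3 stalk proteins and 3 of 5 paralogs or retrogenes. It was also spread over sequence classes, with 16 of 31 members under 50% shared and 16 of 47 at 50% or more.

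The summed level of all members gives the size of the shift per mouse. It was 899.4, 955.8, 1057, 809.4 and 968.2 scaled FPKM in HFD placebo 1 to 5, against 829.4, 725.2, 768.9, 744.7 and 750.8 in LFD 1 to 5. HFD placebo 4 lay below LFD 1, so the groups overlapped, and the other 4 HFD placebo libraries lay above every LFD library. HFD placebo 3 and 4 stood apart from their group in opposite directions: 74 of 79 tested members were above the group mean in HFD placebo 3 and 8 of 79 in HFD placebo 4, and in LFD 1 66 were. The count of 32 became 46 without HFD placebo 4 and 23 without HFD placebo 3. Leaving out any single library kept the count of falls at 0, and 21 of the 32 passed in all 10 such fits.

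Lane and scaling bear on the size of the result. With lane as a term 32 members rose, within lane 5 alone, where 3 HFD placebo libraries faced all 5 LFD libraries, 27 rose, and without HFD placebo 4 and 5 there were 33. The median was 0.30 in each by construction, as all these fits set the same lane 5 HFD placebo libraries against LFD. They are not separate checks. Their counts, and those without single libraries, are given without the share of all genes tested that rose in the same fit. So a change in the members cannot be told there from one over all genes. Without any scaling 77 of 79 rose and none fell, but 53.6% of all genes tested rose too, and the member median of 1.27 stood 0.50 above that of all genes. With a constant FPKM sum 63 rose and none fell, beside 37.5% of all genes tested that rose, and the median of 0.64 stood 0.36 above all genes, against 0.27 above in the scaling used. The small RNA Mir6236 held 10.2 to 53.1% of the FPKM sum, which any constant sum inherits.

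Among the small-subunit proteins the largest rise was that of Rps29, a small zinc-binding protein of the subunit's head. Its values were 9.85, 9.08, 10.6, 6.74 and 10.4 scaled FPKM in HFD placebo, against 5.16, 5.25, 5.25, 5.51 and 7.03 in LFD. HFD placebo 4 was below LFD 5, and the other HFD placebo values were above all of LFD. The log2 fold change was 0.63 ± 0.16 (SE, adjusted p = 0.0039). Rps26, which sits at the messenger exit channel, was at 30.9, 28.1, 22.3 and 28.4 in HFD placebo 1, 2, 4 and 5, with HFD placebo 3 just under the second of these, against 20.7, 19.7, 16.7, 21.5 and 17.5 in LFD. The groups did not overlap, and the log2 fold change was 0.50 ± 0.10 (SE, adjusted p = 0.00069). Rps26, and Rps3, Rpl7a and Rpl37a below, were chosen after their values were seen. Rps6, the protein that S6 kinase phosphorylates, averaged 14.5 ± 1.16 in HFD placebo and 12.5 ± 0.802 in LFD (SD, n = 5 each), a difference of 0.20 on the log2 scale that did not pass (adjusted p = 0.0759).

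Among the large-subunit proteins Rpl38, known from mice in which its loss alters the translation of Hox messengers, differed most. It was at 9.98, 7.02, 10.1, 8.39 and 10.6 scaled FPKM in HFD placebo, against 7.07, 4.03, 5.44, 5.50 and 5.03 in LFD. HFD placebo 2 fell just below LFD 1 and the rest stood above all LFD values, with a log2 fold change of 0.68 ± 0.16 (SE, adjusted p = 0.0036). Rpl12, part of the stalk base, averaged 5.46 ± 0.820 in HFD placebo and 3.31 ± 0.986 in LFD (SD, n = 5 each), and its log2 fold change was 0.60 (adjusted p = 0.0035). Rpl7a was at 8.44, 10.1, 10.3, 7.94 and 8.37 in HFD placebo, against 7.26, 5.63, 5.02, 6.00 and 5.99 in LFD. These did not overlap, and the log2 fold change was 0.52 (adjusted p = 0.00051). Rpl37a rose without overlap as well, by a log2 fold change of 0.50 (adjusted p = 0.0089), and so did the most abundant member Rpl41, at 58.3 ± 2.40 in HFD placebo and 46.1 ± 4.79 in LFD (SD, n = 5 each), with a log2 fold change of 0.34 (adjusted p = 0.0074). Rpl10, which joins the subunit last in the cytoplasm, had a log2 fold change of 0.45 (adjusted p = 0.0031). At the other end stood Rpl11, which with Rpl5 and 5S RNA forms the complex that binds Mdm2: it averaged 8.55 ± 1.12 in HFD placebo and 9.04 ± 1.12 in LFD (SD, n = 5 each), and its log2 fold change of -0.07 did not pass (adjusted p = 0.587). Its partner Rpl5, with 0.21, did not pass either (adjusted p = 0.0931).

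The smallest adjusted p of any member was that of Rpl36al (chr12:69182731-69184083), a close paralog of the X-linked gene Rpl36a. It was at 16.8, 16.0, 16.4, 15.5 and 15.7 scaled FPKM in HFD placebo, against 10.5, 11.7, 8.97, 10.1 and 8.18 in LFD. No values overlapped and the 5 HFD placebo mice lay close together, with a log2 fold change of 0.66 ± 0.09 (SE, adjusted p = 2.0e-05). Rpl36a itself averaged 4.39 ± 0.793 in HFD placebo and 4.20 ± 0.577 in LFD (SD, n = 5 each), and its log2 fold change of 0.05 did not pass (adjusted p = 0.795). The ratio of Rpl36al to Rpl36a was 3.74 ± 0.553 in HFD placebo and 2.38 ± 0.416 in LFD (SD, n = 5 each), given as a description. Of Rpl36al 63.3% and of Rpl36a 85.5% was shared with other genes. Rps27rt rose by a log2 fold change of 0.76 (adjusted p = 0.0068) and Rps27l by 0.53 (adjusted p = 0.0013), both without overlap. The low paralogs Rpl7l1 and Rps4l, the second annotated as a transcribed processed pseudogene, with log2 fold changes of 0.07 and -0.01, did not pass (adjusted p = 0.489 and 0.940).

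Several members serve as reference genes in expression studies. Rplp0, the scaffold of the P stalk, was at 15.5, 16.4, 18.7, 14.5 and 17.4 scaled FPKM in HFD placebo, against 14.2, 11.8, 14.3, 13.7 and 13.0 in LFD. The groups did not overlap, with HFD placebo 4 just above LFD 3. Rplp0 rose by a log2 fold change of 0.28 (adjusted p = 0.0379) and passed in 4 of the 10 fits without one library. The stalk dimer partners Rplp1 and Rplp2 had 0.25 and 0.09 and did not pass (adjusted p = 0.0754 and 0.617). Rpl13a, with 0.30, narrowly missed the threshold (adjusted p = 0.0606), and Rps18, with 0.19, did not pass (adjusted p = 0.348). Rps18 was at 14.8, 17.7, 21.5, 11.8 and 16.1 in HFD placebo, against 15.7, 10.8, 19.7, 12.9 and 12.1 in LFD, and both groups spread widely and overlapped.

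**Figure D3:**
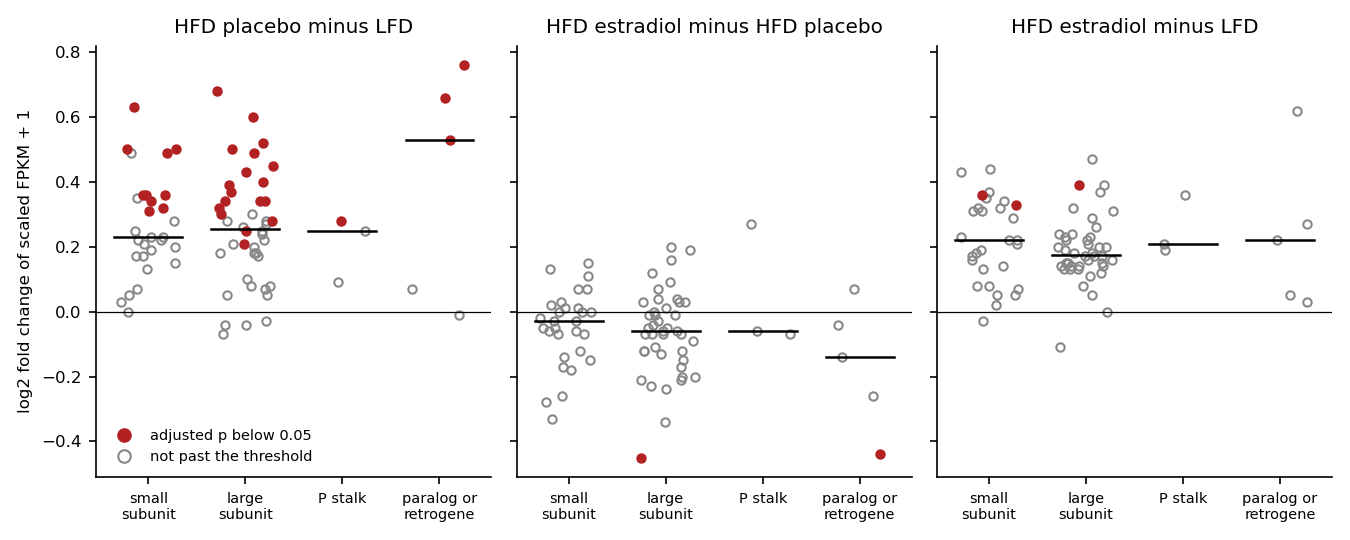
Log2 fold change of scaled FPKM + 1 for the 79 tested members in 3 comparisons, by class, with a bar at each class median and filled points at an adjusted p below 0.05 in limma. Red points number 32 above 0 in HFD placebo minus LFD, 2 below 0 in HFD estradiol minus HFD placebo and 3 above 0 in HFD estradiol minus LFD.

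Estradiol was set against its placebo on the high-fat diet. Few ribosomal protein genes changed. No member rose, where 14.3% of all genes tested did, and none was higher at an unadjusted p below 0.05 in limma, beside 1129 of 5615 genes. Rpl36al and Rpl38 fell, which is 2 of 79 where 16.0% of all genes tested fell. At an unadjusted p below 0.05 in limma 5 members were lower, beside 1140 of 5615 genes. The median log2 fold change was -0.05, against 0.01 over all genes. Rpl36al alone had groups that did not overlap, which for lower values holds for 11.2% of all genes tested, and no member was higher without overlap, which holds for 10.0%.

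Rpl36al was at 11.4, 12.6, 10.7, 11.4 and 11.8 scaled FPKM in HFD estradiol, against 16.8, 16.0, 16.4, 15.5 and 15.7 in HFD placebo. All estradiol mice lay below all placebo mice, and the log2 fold change was -0.44 ± 0.09 (SE, adjusted p = 0.0011). It passed in all 10 fits without one library and within lane 6, and did not pass without scaling or with a constant sum, while its log2 fold change stayed between -0.78 and -0.40 over all 23 alternatives. Rpl36a stood at 5.21 ± 1.26 in HFD estradiol and 4.39 ± 0.793 in HFD placebo (SD, n = 5 each), with a log2 fold change of 0.19 (adjusted p = 0.288), and the ratio of Rpl36al to Rpl36a was 2.30 ± 0.428 in HFD estradiol and 3.74 ± 0.553 in HFD placebo (SD, n = 5 each). Rpl38 was at 9.43, 7.64, 5.10, 4.66 and 6.17 in HFD estradiol, against 9.98, 7.02, 10.1, 8.39 and 10.6 in HFD placebo. The groups overlapped. Its log2 fold change of -0.45 ± 0.16 (SE, adjusted p = 0.0494) was at the threshold and was lost without any of HFD placebo 1, 3, 4 and 5 or HFD estradiol 3, 4 and 5, and within lane 6. The number of falls was 4 without HFD estradiol 1 and 1 without HFD placebo 3, HFD placebo 5 or HFD estradiol 5. Rps29, at -0.26 (adjusted p = 0.229), Rps26, at -0.14 (adjusted p = 0.301), and Rplp0, at -0.07 (adjusted p = 0.658), did not pass.

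**Figure D4:**
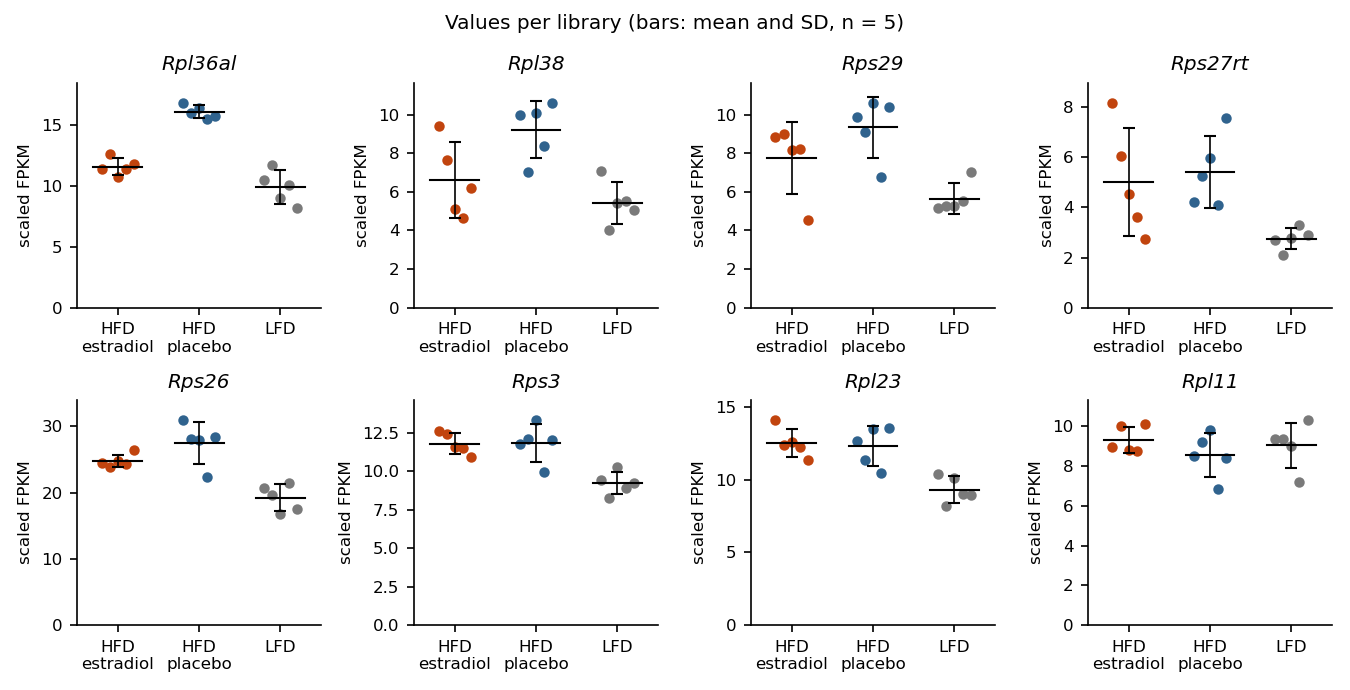
Scaled FPKM of 8 members in each library, with points for mice and bars for the mean and SD (n = 5). Rpl36al separates HFD placebo from both other groups, the means of Rps26, Rps3 and Rpl23 are above LFD in both high-fat groups, and Rpl11 overlaps in all 3.

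HFD estradiol was last set against LFD, to see what difference from the low-fat diet was left under estradiol. This comparison shares its libraries with the others, and no lane holds both of its groups. A lane effect can be fitted here only through the HFD placebo libraries, which lie on both lanes. Members were slightly higher in HFD estradiol, and few passed. Rps3, Rpl23 and Rps26 rose, which is 3 of 79 where 3.95% of all genes tested rose. None fell, where 3.74% did. At an unadjusted p below 0.05 in limma 28 of 79 were higher, beside 577 of all 5615 genes, and none was lower, beside 619. The median log2 fold change was 0.19, against -0.00 over all genes, and 77 members had a positive one, beside 2742 of 5615 genes. In 7 members every HFD estradiol value lay above every LFD value (4.20% of all genes tested), and in 0 the reverse (3.85%).

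Rps3, of the messenger entry channel, was at 12.6, 12.4, 11.6, 11.5 and 10.9 scaled FPKM in HFD estradiol, against 9.43, 8.27, 10.3, 8.93 and 9.22 in LFD. The groups did not overlap, and the log2 fold change was 0.33 ± 0.08 (SE, adjusted p = 0.0247). Rpl23, another protein known to bind Mdm2, was at 14.1, 12.4, 12.6, 12.3 and 11.4 in HFD estradiol, against 10.4, 8.19, 10.1, 9.05 and 8.95 in LFD. It did not overlap either, with 0.39 ± 0.09 (SE, adjusted p = 0.0157). Rps26 was at 24.5, 23.9, 24.8, 24.3 and 26.4 in HFD estradiol, above every LFD value, with 0.36 ± 0.10 (SE, adjusted p = 0.0346). The same 3 members had log2 fold changes of 0.32, 0.37 and 0.50 in HFD placebo against LFD, the order being Rps3, Rpl23 and Rps26. Rpl23 passed in all 10 fits without one library, Rps3 in 6 and Rps26 in 2. The count of 3 became 7 without LFD 1, 5 without HFD estradiol 5, and 1 without HFD estradiol 1 or 2. With lane as a term it was 1, Rpl31, at a log2 fold change of 0.60 (adjusted p = 0.0377). With the replicate block Rps28 passed in place of Rps26. Rpl31 and Rps28 were chosen after their values were seen.

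Set side by side, the mean of HFD estradiol lay between LFD and HFD placebo for 51 of 79 members, above both for 25 and below both for 3. The same count was not made over all genes. The summed level was 1022, 916.7, 883.3, 842.5 and 794.4 scaled FPKM in HFD estradiol 1 to 5, so that it overlapped both HFD placebo (809.4 to 1057) and LFD (725.2 to 829.4). HFD estradiol 1, the highest, had 67 of 79 tested members above its group mean, and HFD estradiol 4 had 16. HFD estradiol 5, the lowest in sum, also had the smallest scaling factor of its group at 0.611 and the largest Mir6236 share at 49.9%, while HFD estradiol 1 had the largest factor at 1.63. In HFD placebo the library with the largest factor of all, HFD placebo 4 at 3.23, had the lowest sum, and the next largest, HFD placebo 5 at 2.90, had the second-highest. In LFD the library with the largest factor, LFD 1 at 0.772, had the highest sum. LFD 2, with the smallest factor at 0.481 and the largest Mir6236 share at 53.1%, had the lowest. The part of depth in these sums was not tested.

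Markers of other cells in the tissue also differed between the groups. Of 11 macrophage markers tested 10 rose in HFD placebo against LFD (90.9%, beside 21.3% of all genes tested), and their summed level was 296, 316, 527, 183 and 290 scaled FPKM in HFD placebo 1 to 5, against 126, 51.4, 93.8, 81.8 and 68.1 in LFD 1 to 5. Within HFD placebo the library highest in macrophage markers, 3, and the lowest, 4, were also those highest and lowest in summed ribosomal protein level, and within LFD the same held of LFD 1 and LFD 2. Under estradiol 9 of the 11 markers fell against HFD placebo (81.8%, beside 16.0% of all genes tested) and 1 rose (9.09%, beside 14.3%). Their sums were 191, 127, 118, 81.8 and 87.9 in HFD estradiol 1 to 5. HFD estradiol 1 was the highest in both measures. The lowest differed, being HFD estradiol 4 in macrophage markers and HFD estradiol 5 in summed ribosomal protein level. All but 1 of the macrophage sums lay below every HFD placebo library, while the ribosomal protein sums of both groups overlapped. In that comparison the median log2 fold change was -1.16 over the macrophage markers and -0.05 over the tested members. In HFD estradiol against LFD the medians were 0.77 and 0.19. There 5 of the 11 macrophage markers rose (45.5%, beside 3.95% of all genes tested) and none fell. Without scaling none rose there, and with a constant sum 7 did (63.6%, beside 9.53%). Cd68 averaged 6.12 ± 2.37 in HFD estradiol, 31.6 ± 10.2 in HFD placebo and 2.73 ± 0.658 in LFD (SD, n = 5 each). Mature adipocyte markers went the other way, with 9 of 10 lower and 1 higher in HFD placebo against LFD, where 22.0% of all genes tested were lower. Without scaling 2 were lower, beside 0.321% of all genes tested, and their median turned to 0.22, below the 0.77 of all genes. With a constant sum 3 were lower, beside 3.46% of all genes tested. Summed scaled levels were 991 to 1620 in HFD placebo and 1978 to 2856 in LFD. In HFD estradiol against HFD placebo 7 of the 10 adipocyte markers rose (70.0%, beside 14.3% of all genes tested) and 1 fell. Without scaling 1 rose, beside 0.232% of all genes tested, and with a constant sum 5 did, beside 4.65%. Of 13 lymphocyte markers 2 were tested, and both fell in HFD placebo against LFD, where 22.0% of all genes tested fell. Without scaling 0 of the 2 fell, and with a constant sum 1 did, beside 3.46% of all genes tested. The summed level of the list ran from 1.38 to 7.05 in HFD placebo and 5.94 to 12.1 in LFD. In bulk tissue fewer cells of a type and less RNA per cell cannot be told apart, and the part of cell content in the ribosomal protein levels was not tested.

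**Figure D5:**
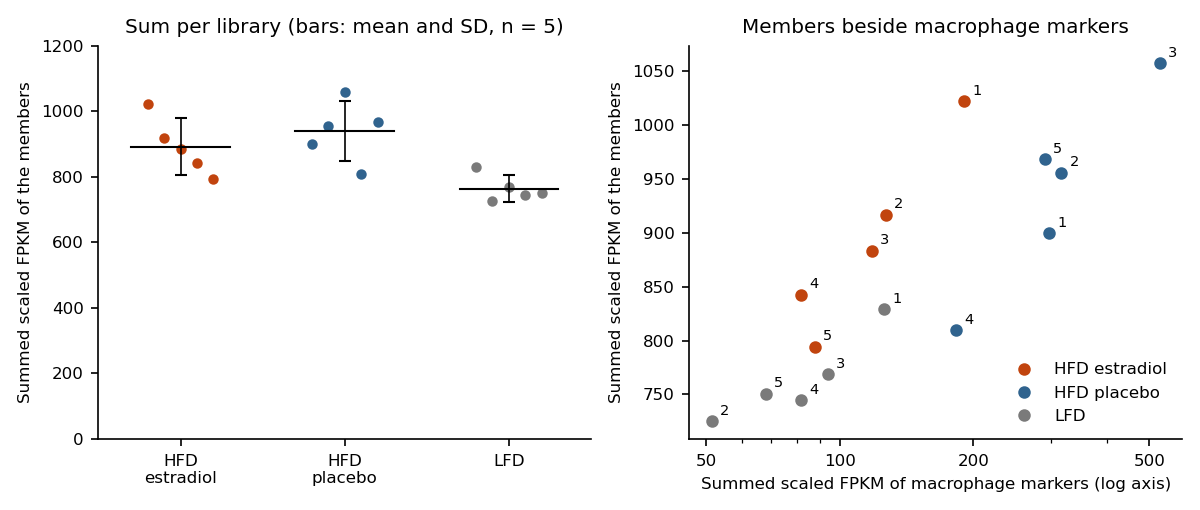
Left, summed scaled FPKM of the 87 members in each library with mean and SD (n = 5 mice each). Right, the same sums against the summed scaled FPKM of the macrophage markers (log axis), numbered by mouse: HFD placebo 3 (527 and 1057) is highest in both and HFD placebo 4 (183 and 809.4) is lowest of its group in both.

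The rest of the translation machinery was looked up from lists. The mitochondrial ribosomal proteins, nuclear-encoded parts of a separate ribosome, showed no such rise in HFD placebo against LFD: of 59 tested none rose in limma, where 1 was higher at an unadjusted p below 0.05, and 11 fell, a share of 18.6% beside the 22.0% of all genes tested that fell. Their median log2 fold change was -0.14. This direction of the calls turned under the other scalings, with none falling. Without scaling 21 rose (35.6%, beside 53.6% of all genes tested), and with a constant sum 11 rose (18.6%, beside 37.5%). Their median nonetheless stood below that of all genes under each scaling, by 0.13, 0.09 and 0.11 on the log2 scale, while that of the cytosolic members stood above it. Other genes of TOP messengers and ribosome-associated proteins had a median of 0.17, and 1 of 12 rose (8.33%, where 21.3% of all genes tested rose), against 12 without scaling and 9 with a constant sum. The 1 was Gnb2l1, which encodes the small-subunit scaffold protein RACK1: 19.5 ± 2.58 in HFD placebo and 12.2 ± 0.995 in LFD (SD, n = 5 each), with a log2 fold change of 0.63 (adjusted p = 0.00033).

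Of 17 ribosome assembly factors tested 5 rose in HFD placebo against LFD (29.4%, beside 21.3% of all genes tested) and none fell in limma, where 3 were lower at an unadjusted p below 0.05. Their median log2 fold change was -0.00, against -0.01 over all genes. They included Nhp2, of the box H/ACA particles that modify ribosomal RNA, at 0.35 (adjusted p = 0.0198), Eif6, which keeps new large subunits from joining too early, at 0.31 (adjusted p = 0.0071), Npm1, a nucleolar chaperone, at 0.29 (adjusted p = 0.0178), and Noc2l, whose yeast counterpart acts in large-subunit maturation, at 0.19 (adjusted p = 0.0211). None of 4 tested genes of RNA polymerase I and its factors passed in either direction in limma, and none of 8 elongation and release factors did, with 0 at an unadjusted p below 0.05 in both lists. Without scaling 2 of the 4 and 6 of the 8 rose, beside 53.6% of all genes tested, and with a constant sum 2 and 4, beside 37.5%. Of 32 initiation factors 5 rose (15.6%) and 3 fell (9.38%), both shares below those of all genes tested. Without scaling 16 rose and 0 fell, and with a constant sum 10 rose and 0 fell. The paralogous helicases of eIF4F went opposite ways: Eif4a1 was at 7.03 ± 0.454 in HFD placebo and 5.40 ± 0.390 in LFD, and Eif4a2 at 4.62 ± 0.392 in HFD placebo and 7.75 ± 0.709 in LFD (SD, n = 5 each). Their log2 fold changes were 0.33 (adjusted p = 0.0019) and -0.64 (adjusted p = 2.7e-05), though Eif4a2 had a positive one, 0.39, without scaling. In HFD estradiol against HFD placebo Eif4a1 fell by 0.42 (adjusted p = 0.00043) and Eif4a2 rose by 0.62 (adjusted p = 6.9e-05) on the log2 scale. Eif5a, needed for elongation past proline runs, rose by a log2 fold change of 0.35 in HFD placebo against LFD (adjusted p = 0.0012) and fell by 0.29 in HFD estradiol against HFD placebo (adjusted p = 0.0077).

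Of 17 tested genes that control ribosome synthesis and growth, 5 rose (29.4%) and 3 fell (17.6%) in HFD placebo against LFD, where 21.3% and 22.0% of all genes tested did. Without scaling 9 rose (52.9%, beside 53.6% of all genes tested) and 0 fell, and with a constant sum 8 rose (47.1%, beside 37.5%) and 0 fell. Eif4ebp1, the mTORC1 target that blocks eIF4E, was at 9.02 ± 1.36 in HFD placebo and 15.7 ± 0.289 in LFD (SD, n = 5 each), with a log2 fold change of -0.75 (adjusted p = 0.00014) that was 0.33 without scaling. Rps6kb1, which encodes S6 kinase 1, fell by 0.22 (adjusted p = 0.0210), and Rps6ka3, of the RSK family, fell by 0.35 on the log2 scale (adjusted p = 0.0028). Both were positive without scaling, at 0.54 and 0.58. Mdm2 rose by a log2 fold change of 0.41 (adjusted p = 0.00020) and Trp53, which encodes p53, by 0.38 (adjusted p = 0.00049). In HFD estradiol against HFD placebo Mdm2 fell by 0.36 (adjusted p = 0.00088), Eif4ebp1 rose by 0.44 (adjusted p = 0.0114) and Rps6kb1 rose by 0.20 (adjusted p = 0.0444) on the log2 scale, the last being -0.08 without scaling. None of the 17 passed in HFD estradiol against LFD in limma, where 2 were higher and 2 lower at an unadjusted p below 0.05.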

How the data were processed

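Stranded Illumina libraries were made from rRNA-depleted total RNA with a RIN above 7, per the labels' protocols. The authors deposited FPKM per gene symbol, 1 file per library. The tools named are STAR and Cufflinks, and the build mm10, per the submitters' processing notes, without versions. The sources used here give neither the annotation nor the handling of reads that fit several genes. Lane numbers come from the deposited file names.

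Each library was divided by a median-of-ratios factor over 5874 genes (factors 0.481 to 3.23). The 5615 genes that reached a scaled FPKM of 1 in 5 or more libraries were tested on log2(scaled FPKM + 1), a scale on which low genes show less than their true change. The fit was limma 3.58.1 in R 4.3.3 with trend and robust moderation on all 15 libraries, adjusted by Benjamini and Hochberg over all tested genes at 0.05. It was tested on simulated data with independent noise for each gene and changes larger than the members' medians. That test does not cover smaller changes or members that move together within a library. No read counts were used. Depth was estimated from the spacing of low FPKM in 1636 genes and gives no interval for single values.

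Members, lists and tests were chosen with earlier results of these data known. Named members were, per comparison, the 6 largest rises and 6 largest falls, all paralogs with their counterparts, and 10 members of general interest. Exceptions are marked in the text, and up to 4 genes are named per companion list. Positions and shared 50-base stretches are from GENCODE vM21 on GRCm38, in which all 87 members were located. No 2 libraries were identical, and correlations within groups ran from 0.927 to 0.979. Alternatives covered scaling, pseudocount, filter, lane, groups in the fit, moderation, replicate number and leaving out each library. The alternative without HFD placebo 4 and 5 was chosen after seeing the data.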

Additional observations from a re-analysis of the deposited data

Results flagged for a closer look

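The sets looked at were 47 named members, their family's summed level and its share of the FPKM sum, in each of 3 groups. Sets in which all mice had the same value were left out. Among the 141 sets of 5 mice that remained, 9 held 1 mouse whose gap to the nearest other exceeded 0.71 of the whole range. Chance flags about 1 in 20 such sets. Rps29 was at 4.51 scaled FPKM in HFD estradiol 5, with the other mice at 8.17 to 8.98, and at 7.03 in LFD 5, with the others at 5.16 to 5.51. Rps27a, which encodes a fusion of ubiquitin and a small-subunit protein, was at 3.41 in HFD estradiol 1, with the others at 2.11 to 2.37, and at 4.75 in HFD placebo 3, with the others at 2.53 to 3.17. Rpl9 was at 5.72 in HFD estradiol 1, with the others at 4.48 to 4.74. Rpl7 was at 19.6 in HFD placebo 4, with the others at 22.7 to 23.7. Rplp2 was at 4.22 in LFD 4, with the others at 2.07 to 2.62, and Rpl13a was at 11.2 in LFD 1, with the others at 8.58 to 9.24. Rpl3l, the striated-muscle paralog of Rpl3, was at 0.0917 in LFD 4 and listed at 0 in every other LFD library. HFD estradiol 1, HFD placebo 3 and LFD 1 were also the libraries with the highest summed ribosomal protein level of their group.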

How the results depend on the processing

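For HFD placebo against LFD, the number of members that rose was 77 without scaling and 63 with a constant sum, with medians of 1.27 and 0.64. Of all genes tested 53.6% and 37.5% rose in these fits. The number for the members varied in other fits too. It ran from 23 to 46 when single libraries were left out, the falls from 0 to 0 and the median from 0.21 to 0.30. One member, Rps27, fell when every gene above 0 was tested, a count of 1. In all, 19 of the 32 rises passed under every alternative run. For HFD estradiol against HFD placebo, the number that fell was 0 without scaling, where 4.68% of all genes tested fell. It was also 0 with a constant sum, where 10.2% did. The number was 1 with a pseudocount of 0.1 or 0.5, every gene above 0, only the 2 groups, lane as a term or lane 6 alone. It ran from 1 to 4 when single libraries were left out, the rises from 0 to 0, and the median, -0.36 without scaling, from -0.10 to -0.01. For HFD estradiol against LFD, the number that rose was 0 without scaling, where only 0.695% of all genes tested rose. With a constant sum it was 19 (24.1%, beside 9.53% of all genes tested). The medians were 0.90 and 0.54. The number was 6 with a filter of 5 and 1 with lane as a term. It ran from 1 to 7 when single libraries were left out, the falls from 0 to 0 and the median from 0.14 to 0.24. The cause was not tested, beyond the median over all genes of 0.77, 0.28, 0.49 and 0.24 to which the scalings moved HFD placebo and HFD estradiol against LFD. Signs turned without scaling in HFD placebo against LFD for Eif4a2 (0.39), Eif4ebp1 (0.33), Rps6ka3 (0.58), Rps6kb1 (0.54) and Adipoq (0.08), with a constant sum for Rps6ka3 (0.00) and Rps6kb1 (0.07), and without scaling in HFD estradiol against HFD placebo for Rps6kb1 (-0.08). Replicate numbers name different mice: the deviations of same-numbered libraries correlated from -0.21 to 0.36, over 0.1 in 5 of 15 pairs. With the replicate block 32 members rose and 0 fell, 0 rose and 2 fell, and 3 rose and 0 fell in the 3 comparisons, with Rps28 in place of Rps26 in the last. Apart from the scalings, the counts of these alternative fits are given without the share of all genes tested that was called in each. HFD estradiol and LFD shared no lane, so no value within a lane was possible. Depth, lowest in LFD on the whole, limits members below a scaled FPKM of 1 and also short tested members. Rps27rt, with a transcript of 374 bases, averaged 2.75 in LFD. There a scaled FPKM of 1 in 500 bases stood for 3.43 to 6.70 fragments.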
